A study of Mus musculus with 8 samples.

Results

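The genes described here encode subunits of respiratory complexes II to V. They were taken by name, as every probe on the array called Sdha, Sdhb, Sdhc, Sdhd or Cyc1, or with a name starting Uqcr, Cox4, Cox5, Cox6, Cox7, Cox8 or Atp5. This gave 78 probes of 49 genes, in 87 spots, out of 39429 probes in 43020 spots. Complex II had 6 probes of 4 genes, complex III 16 probes of 9 genes, complex IV 25 probes of 19 genes and complex V 31 probes of 17 genes. The name pattern also took 4 genes that encode no core subunit: Atp5s and Atp5sl, which RefSeq now calls Dmac2l and Dmac2, Cox4nb, now Emc8, and Cox7a2l. RNA came from the striatum of adult male mice, 4 labelled heterozygous for a gene trap in Brd2 (Brd2+/-) and 4 labelled wildtype, each mouse a sample of its own. All 8 were untreated, from matings between Brd2+/- parents at backcross generation 7 onto C57Bl/6j, with genotypes read by PCR over the junction of the trap. The trap is carried by the whole animal, so no cell type of the striatum is singled out, and the age is given only as adult. On each of 4 arrays of 1 slide, 2 mice of the same genotype were hybridised together, replicates 1 and 3 with Cy3 and replicates 2 and 4 with Cy5.

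Complex II oxidises succinate and passes the electrons to ubiquinone, complex III passes them on to cytochrome c, and complex IV hands them to oxygen. Complexes III and IV pump protons while doing so, and complex V, the ATP synthase, lets the protons back through a rotor to make ATP. All subunits of complex II and most subunits of the others are encoded in the nucleus, and several complex IV subunits have a form common to all tissues and a second form in muscle, lung or testis. Neurons depend on this chain to pay for ion pumping and synaptic transmission, and loss of complex II activity is known to injure the striatum.

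Several members are measured by probes that share part of their sequence, and these pairs are printed because they read the same letters in different spots. Capitals mark the bases that both printed stretches share. The Uqcr10 probes share 53 of their 60 bases and lie 7 bases apart on the minus strand, at chr11:4601972-4602031 and chr11:4601979-4602038 (mm9). The Uqcr11 probes share a run of 31 bases at chr10:79865745-79865804 and chr10:79865737-79865796, and the Atp5l probes share a run of 28 bases on chromosome 9.
Uqcr10 A_55_P2157705: ACTTCTGCTGTGTTTGAGTACAGctgtcag
Uqcr10 A_55_P2166414: cagactcACTTCTGCTGTGTTTGAGTACAG
Uqcr11 A_55_P1961983: gGGTGCAGCATTAAACCTTATTCTTATGCC
Uqcr11 A_55_P1979743: aGGTGCAGCATTAAACCTTATTCTTATGCC
Atp5l A_55_P2024021: ctGCTATCTGAATAAAATACTAGGTGTTGA
Atp5l A_55_P2026669: cGCTATCTGAATAAAATACTAGGTGTTGAa

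Across the 8 samples, 16398 to 24867 probes were well above background, the median signal over background was 3.75 to 10.5, and 0 spots were saturated. This ratio was 5.30 or less in the Cy5 channels and 6.48 or more in the Cy3 channels. The genotype labels could not be checked on Brd2 itself. Its 2 probes averaged 11.75 ± 0.06 and 8.01 ± 0.18 log2 units in heterozygous mice and 11.46 ± 0.65 and 7.13 ± 0.26 in wildtype mice (SD, n = 4 each), neither lower in the heterozygotes, and the sources used here do not place them relative to the trap. The labels name the tissue both as striatum and, in the sample descriptions, as heart left atrium. Each of 10 listed striatal projection neuron genes was above background in every sample, against 3 of 16 heart muscle genes, and Actc1, Myl7, Nppb, Pln and Ttn were above it in none.

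Of the 78 probes, 74 were well above background in at least 4 samples, and 4 were not: the testis forms Cox7b2 and Cox8c, 1 of 3 Cox7c probes and 1 of 2 Atp5j probes. Values below are log2 intensities after normalization, and differences are heterozygous minus wildtype on that scale, so that 1 is a doubling. They describe 1 probe across samples, since the brightness of different probes cannot be compared. The scanner software marks spots with uneven pixels or discordant signal as outliers, and 38 of the 74 probes kept a value in all 8 samples once these were left out. That is 51.4% of the members, against 82.6% of all probes above background and 45.0% of those whose brightness lay in the middle range of the members. Complex II kept 1 of 6 probes and complex V 10 of 30, against 10 of 16 in complex III and 17 of 22 in complex IV. Flagged members numbered 9, 8, 12 and 11 in the heterozygous samples and 15, 13, 11 and 14 in the wildtype samples.

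No member differed between the genotypes at an adjusted p under 0.05 in limma, with 0 of 38 members and 0 of all 18399 probes called (0%). The lowest adjusted p of a member was 0.435. At an unadjusted p under 0.05, 3 of 38 members were higher in heterozygous mice (7.89%, against 3.89% of all probes) and 4 were lower (10.5%, against 4.09%). Uqcr10, Uqcrb and Atp5k made up the first group, and Sdhb, Cox4i1, Atp5a1 and Atp5l the second, each through 1 probe. All 4 heterozygous values lay above all 4 wildtype values for 4 probes (10.5%, against 8.01% of all probes) and below them for 6 (15.8%, against 8.9%). In all, 17 members were higher and 21 lower, and their median difference was -0.02 log2 units, as over all probes. By complex the median difference was -0.95 in complex II, which rests on 1 probe, 0.31 over 10 probes of complex III, -0.02 over 17 of complex IV and -0.20 over 10 of complex V. Marker lists of cell types are given beside these values. Counts and medians are over fitted probes. Mean deviations per sample are from each probe's average, over all listed probes above background in at least 4 samples, flagged spots kept. Of the cortical excitatory neuron list, 5 of 6 fitted probes were lower in heterozygous mice (median -0.96). Its mean deviations were 0.29, -0.81, -0.71 and -0.59 in heterozygous mice and 2.01, -0.04, -0.19 and 0.03 in wildtype mice. Wildtype replicate 1 lay far above the other mice. Of the striatal projection neuron list, 7 of 8 were higher (median 0.61). Mean deviations were 0.12, 0.46, 0.27 and 0.14 in heterozygous mice and -0.09, 0.11, -0.02 and -0.99 in wildtype mice. Wildtype replicate 4 was far the lowest. Of the fast-spiking interneuron list 3 of 4 were higher (median 0.51), both Pvalb probes among them. Kcnc1 was lower, at -0.34 with its fitted probe and -0.91 and -0.46 with others, flagged spots kept. The list's mean deviations were -0.87 to 0.81 in heterozygous mice and -0.99 to 0.92 in wildtype mice. Of the oligodendrocyte list 5 of 7 were higher (median 0.28). Its mean deviations were -0.01 to 0.43 in heterozygous mice against -0.31 to 0.01 in wildtype mice. The other 5 lists had medians between -0.23 and 0.06. Of all marker lists, that of the choroid plexus varied most between mice. Its mean deviations were -1.08 to 2.05 in heterozygous mice and -2.24 to 2.34 in wildtype mice. No marker probe passed the adjusted threshold, and their part in the members' differences was not tested. In RNA from whole tissue, fewer cells of a type and less RNA per cell cannot be told apart.

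**Figure D1:**
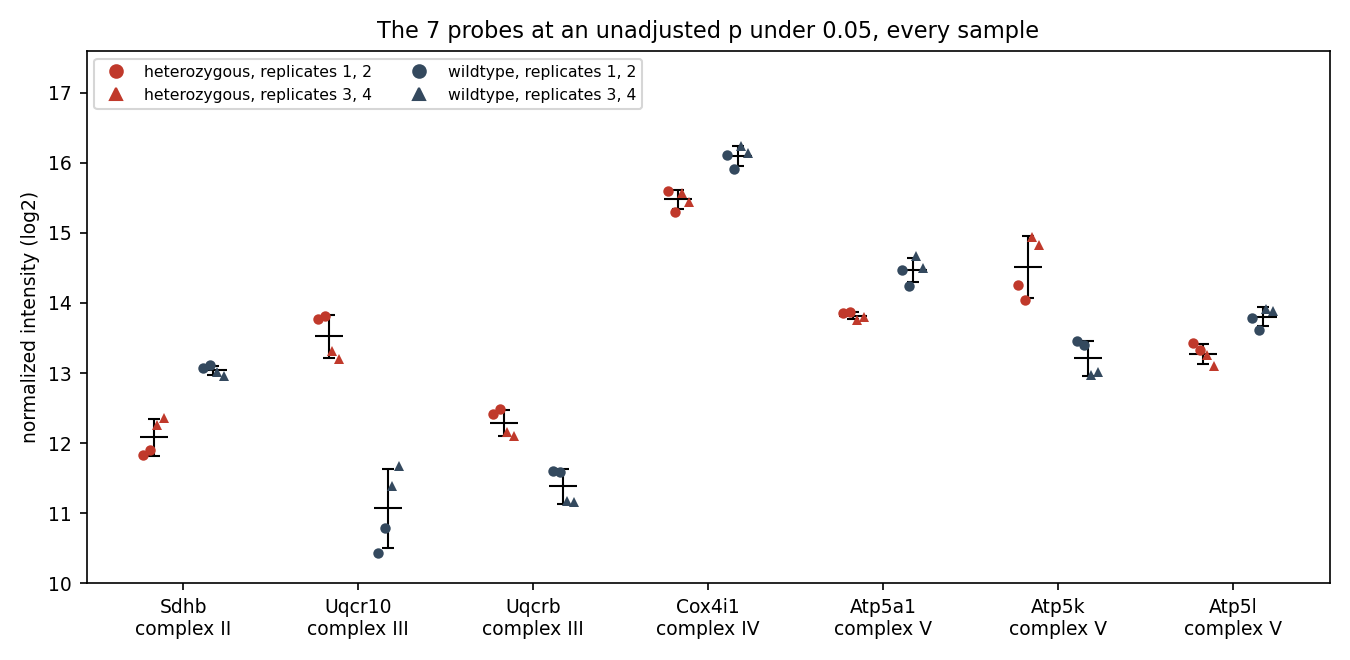
Normalized intensity (log2) of the 7 member probes at an unadjusted p under 0.05 in every sample, heterozygous (red) left of wildtype (dark blue). Circles are replicates 1 and 2, which share an array, triangles replicates 3 and 4, and bars show the mean ± SD of 4 mice. The genotypes do not overlap for any of the 7, and for Uqcr10, Uqcrb, Sdhb and Atp5k the 2 mice of an array lie closer together than the 2 arrays of a genotype.

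With flagged spots kept, all 74 probes could be fitted, and again 0 members and 0 of 22288 probes passed the adjusted threshold (0%). Unadjusted p was under 0.05 for 7 members higher in heterozygous mice (9.46%, against 4.61% of all probes) and 8 lower (10.8%, against 4.19%). The median differences became -0.40 over 6 probes of complex II, 0.24 over 16 of complex III, -0.02 over 22 of complex IV and -0.14 over 30 of complex V. The groups did not overlap for 11 higher members (14.9%, against 9.33% of all probes) and 12 lower ones (16.2%, against 8.87%). Values below that use flagged spots are named as such. With only the flagged samples of a probe dropped, 33 of the 36 probes lost to flags had a difference, and its sign turned for 4, of Uqcrh, Cox6c, Cox7c and Atp5g2. Of 7 among the 33 with an unadjusted p under 0.05, 3 kept it.

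**Figure D2:**
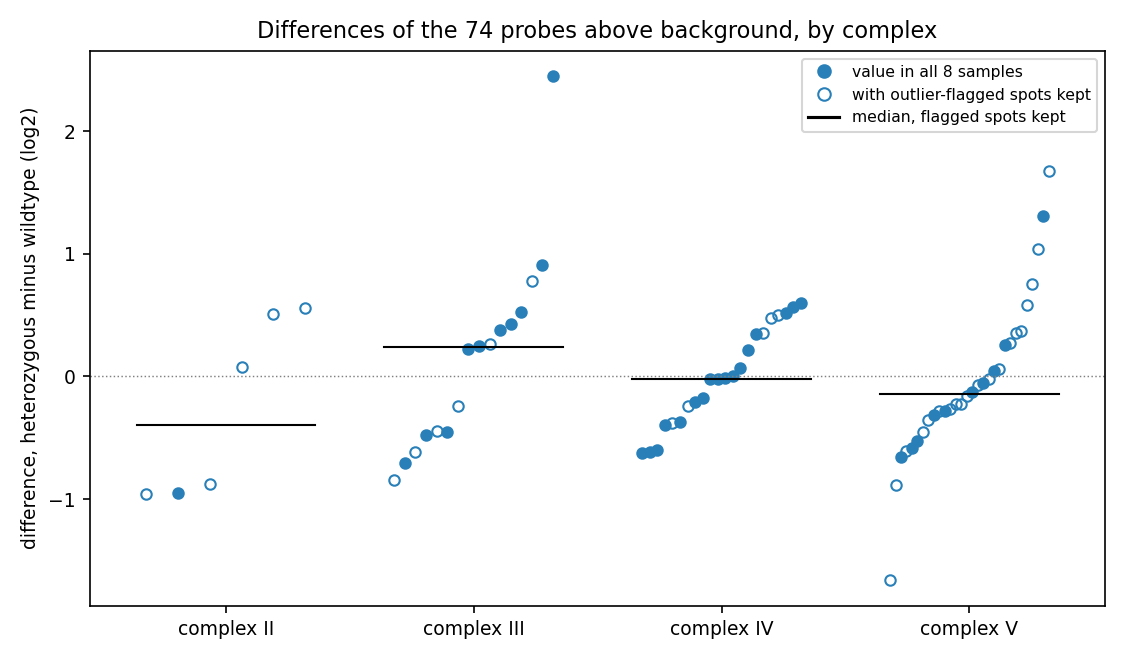
Difference, heterozygous minus wildtype (log2), of the 74 member probes above background, by complex. Filled points have a value in all 8 samples, open points use outlier-flagged spots, and lines mark the median with flagged spots kept. Complexes III and V spread furthest, up to 2.45 and 1.68 and down to -0.85 and -1.66, while complex IV stays within -0.62 and 0.60.

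Complex II has a flavoprotein, an iron-sulphur protein and a pair of membrane anchors. Sdhb, the iron-sulphur subunit, had 11.83, 11.90, 12.25 and 12.36 in heterozygous mice and 13.07, 13.11, 13.01 and 12.95 in wildtype mice with the probe at chr4:140529606-140529665 (mm9). The groups did not overlap, and the difference was -0.95 (SE 0.24, unadjusted p = 0.00345, adjusted p = 0.435 in limma). A second Sdhb probe, with 1 flagged value, gave 0.08 (SE 0.28). The other 3 genes had no probe free of flags in all 8 samples, so their values include flagged spots, and these genes were chosen after their values were seen. Sdhc, a membrane anchor, was lower with both of its probes. The first had 11.56, 11.33, 12.68 and 12.68 in heterozygous mice and 12.97, 12.86, 13.09 and 12.85 in wildtype mice, without overlap, and the differences were -0.88 (SE 0.38) and -0.96 (SE 0.35), at adjusted p of 0.554 and 0.471 in limma. With flagged samples dropped the first gave -0.90 at an unadjusted p of 0.122 in limma. The heterozygous array of replicates 1 and 2 was the low one, 1.23 below the other heterozygous array with the first probe. For the second of these probes 0 heterozygous values and 1 wildtype value were free of flags. Sdha, the flavoprotein that binds succinate, was 13.44, 13.61, 13.47 and 13.63 in heterozygous mice and 13.12, 13.28, 12.70 and 12.82 in wildtype mice, a difference of 0.56 (SE 0.24, adjusted p = 0.558 in limma). Sdhd, the other anchor, gave 0.51 (SE 0.25). The probes of the complex therefore did not share a direction: the Sdhc probes and 1 Sdhb probe were lower, and those of Sdha and Sdhd were higher. Probes near the lower ones on the array had median differences of -0.54 (Sdhb), -0.53 and -0.52 (Sdhc), with neighbourhoods as given below. Near Sdha, Sdhd and the second Sdhb probe these medians were 0.14, -0.08 and -0.03. The part of position in this split was not tested.

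In complex III, the small subunit gene Uqcr10 held the largest difference of any member. Its probe A_55_P2157705 had 13.77, 13.81, 13.32 and 13.20 in heterozygous mice, against 10.43, 10.79, 11.39 and 11.67 in wildtype mice. Every heterozygous value was over 1.5 units above every wildtype value, and the difference was 2.45 (SE 0.38, 95% interval 1.59 to 3.31, unadjusted p = 0.000116, adjusted p = 0.435 in limma). The probe that shares 53 bases with it had 13.96, 13.75, 14.15 and 14.01 in heterozygous mice and 14.44, 14.31, 12.95 and 13.12 in wildtype mice, with flagged spots kept. There the groups overlapped, replicates 1 and 2 of the wildtype lying above and replicates 3 and 4 below the heterozygotes, and the difference was 0.26 (SE 0.42). The remaining Uqcr10 probe had 12.62, 12.65, 13.12 and 13.08 in heterozygous mice and 12.35, 12.20, 12.54 and 12.67 in wildtype mice, a difference of 0.43 (SE 0.27, unadjusted p = 0.147, adjusted p = 0.783 in limma). The large difference was thus seen with 1 of 3 probes of the gene.

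Uqcrb, a ubiquinone-binding subunit, was likewise uneven over its 3 probes. The probe at chr13:67001691-67001750 (mm9) had 12.41, 12.49, 12.16 and 12.10 in heterozygous mice, against 11.61, 11.59, 11.17 and 11.16 in wildtype mice, a difference of 0.91 (SE 0.25, adjusted p = 0.446 in limma) without overlap. Another had 12.41, 12.30, 12.97 and 12.80 in heterozygous mice, against 11.67, 11.44, 12.68 and 12.57 in wildtype mice, with a difference of 0.53 (SE 0.35). The last had 13.63, 13.48, 13.96 and 13.75 in heterozygous mice, against 13.54, 13.30, 13.54 and 13.44 in wildtype mice, with a difference of 0.25 (SE 0.23). All 3 pointed the same way, though in those last 2 the groups overlapped. Uqcrh, the hinge protein that docks cytochrome c1, had 15.31, 15.35, 15.35 and 15.43 in heterozygous mice and 15.12, 15.19, 15.003 and 15.22 in wildtype mice. Here the groups were apart by a small step of 0.23 (SE 0.22, adjusted p = 0.895 in limma), while the other Uqcrh probe, gave -0.24 (SE 0.45) with flagged spots kept and 0.44 with flagged samples dropped.

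Uqcrq, another small subunit, had 13.59, 13.55, 12.27 and 12.17 in heterozygous mice and 13.46, 13.45, 13.71 and 13.78 in wildtype mice. Only the heterozygous array of replicates 3 and 4 was low, and the difference of -0.70 (SE 0.39, adjusted p = 0.730 in limma) was smaller than the 1.35 units between the 2 heterozygous arrays. The core proteins Uqcrc1 and Uqcrc2 gave 0.38 and -0.46, and a second Uqcrq probe -0.48, at unadjusted p of 0.149 to 0.278. With flagged spots kept, the Rieske iron-sulphur protein Uqcrfs1 gave -0.85 (SE 0.42) and cytochrome c1, Cyc1, -0.45 (SE 0.34). Uqcr11, a small subunit at the edge of the complex, was chosen after its values were seen. Its probe A_55_P1961983 had 14.43, 14.16, 14.98 and 14.79 in heterozygous mice and 13.57, 13.47, 14.17 and 14.06 in wildtype mice, with flagged spots kept. The overlapping probe A_55_P1979743, also with flagged spots kept, had 14.00, 13.97, 14.49 and 14.25 in heterozygous mice and 14.75, 14.78, 14.78 and 14.86 in wildtype mice. They stood on opposite sides, at 0.77 (SE 0.30) and -0.61 (SE 0.27), at adjusted p of 0.503 and 0.563 in limma, the groups apart only with the second. With flagged samples dropped the differences were 0.48 and -0.42.

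Uqcrc2 is printed on the array in 10 spots of 1 probe, whose first 30 bases are given because they stand for the same sequence read at 10 places (chr7:127802599-127802658, mm9).
Uqcrc2 A_51_P128648: cttttctcgacgagttataacacatgcgtg
The genotype difference was above 0 in 2 spots and below 0 in 8, between -0.80 and 0.37, with a median of -0.52. Within 1 sample the 10 spots had an SD of 0.44 to 0.76 log2 units. Averaged over spots free of flags, the gene had 13.33, 13.15, 13.41 and 13.55 in heterozygous mice and 13.94, 13.57, 13.90 and 13.86 in wildtype mice, without overlap, and the difference of -0.46 rests on these (-0.39 with flagged spots kept). Over all 271 probes printed in 10 spots, the median SD between spots was 0.44 and the median range of the spots' genotype differences 1.26, against 1.17 for Uqcrc2. The genotype difference read from a single spot of 1 sequence could therefore differ by over 1 log2 unit between the extreme ones of 10 spots.

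Of complex IV, 1 of 17 fitted probes had an unadjusted p under 0.05, a lower one (5.88%, against 4.09% of all probes). Cox4i1, the common form of the subunit that binds ATP, had 15.60, 15.29, 15.58 and 15.44 in heterozygous mice, against 16.11, 15.91, 16.24 and 16.14 in wildtype mice, with the probe at chr8:123197924-123197983 (mm9). The groups did not overlap, the 2 arrays of each genotype lay within 0.06 and 0.18 of each other, and the difference was -0.62 (SE 0.23, unadjusted p = 0.0233, adjusted p = 0.543 in limma). Cox6b1, a subunit facing the intermembrane space, had 11.77, 12.04, 11.14 and 11.21 in heterozygous mice and 12.06, 11.93, 12.21 and 12.36 in wildtype mice, a difference of -0.60 (SE 0.32) with overlapping groups. Cox6a1, the common form of subunit VIa, had 17.13, 17.33, 17.49 and 17.64 in heterozygous mice, against 17.44, 17.39, 17.26 and 17.58 in wildtype mice and differed by -0.02 (SE 0.26, 95% interval -0.62 to 0.58). Cox7c had 13.96, 13.75, 13.46 and 13.16 in heterozygous mice and 13.90, 13.52, 12.38 and 12.26 in wildtype mice, where the low array of wildtype replicates 3 and 4 set the difference of 0.57 (SE 0.42).

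The Cox8a and Cox5b probes disagreed within the gene. For Cox8a, 1 probe had 15.99, 16.37, 16.46 and 16.48 in heterozygous mice and 16.15, 16.16, 15.19 and 15.75 in wildtype mice, a difference of 0.52 (SE 0.36). The other had 15.84, 16.48, 16.04 and 16.05 in heterozygous mice and 16.40, 16.47, 16.30 and 16.73 in wildtype mice, a difference of -0.37 (SE 0.34). Neither was larger than the spread between samples, and the groups overlapped with both. For Cox5b, the probe on chromosome 1 had 15.62, 15.10, 14.36 and 14.09 in heterozygous mice, against 15.18, 14.93, 15.38 and 15.24 in wildtype mice (-0.39, SE 0.37). The probe that the array's annotation places on chromosome 15, away from the gene, had 14.51, 14.62, 15.21 and 14.94 in heterozygous mice, against 14.76, 14.52, 14.29 and 14.32 in wildtype mice (0.35, SE 0.30). The remaining 4 fitted probes, of Cox5a, Cox7a2l and Cox4nb, lay between -0.02 and 0.22, and 5 fitted with flagged spots kept, of Cox6c, Cox7a2, Cox7a2l, Cox7b and Cox7c, between -0.38 and 0.50.

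Among the tissue-restricted forms of complex IV, Cox4i2, the hypoxia-responsive form of lung, had 9.43, 9.88, 9.65 and 9.84 in heterozygous mice and 9.56, 10.002, 9.53 and 9.77 in wildtype mice (-0.02, SE 0.24). Cox6b2, the testis form, had 9.68, 9.62, 9.90 and 9.41 in heterozygous mice, against 8.15, 8.55, 9.46 and 10.04 in wildtype mice (0.60, SE 0.58). Both stood above background in each sample, and their groups overlapped. Cox7b2 was well above background in 2 heterozygous and 0 wildtype samples and Cox8c in 0 of 8. The muscle form Cox6a2 had 10.73, 10.73, 11.53 and 11.61 in heterozygous mice and 11.12, 11.17, 12.08 and 12.70 in wildtype mice. The muscle form Cox7a1 had 9.35, 9.01, 9.94 and 9.71 in heterozygous mice and 9.19, 9.11, 9.92 and 10.51 in wildtype mice. The muscle form Cox8b had 7.64, 7.20, 8.15 and 7.33 in heterozygous mice and 6.85, 6.83, 8.32 and 9.16 in wildtype mice, 7 of 8 above background. Their genotype differences of -0.62 (SE 0.48), -0.18 (SE 0.51) and -0.21 (SE 0.81) were within the spread, and for Cox6a2 and Cox7a1 replicates 3 and 4 lay above replicates 1 and 2 in both genotypes. Pvalb, which marks fast-spiking interneurons and is also a muscle gene, had 12.51, 11.53, 14.51 and 14.81 in heterozygous mice and 11.48, 10.81, 14.16 and 14.81 in wildtype mice, the same order of arrays. Over the 6 probes of the fast-spiking list, flagged spots kept, mean deviations from each probe's average were -0.43, -0.87, 0.50 and 0.81 in heterozygous mice. In wildtype mice they were -0.47, -0.99, 0.53 and 0.92. Within this list the fitted Kcnc1 probe lacked the order, at 10.45, 10.33, 10.15 and 10.23 in heterozygous mice, while its other probes, flagged spots kept, had it. The choroid plexus list had the same order of arrays. Its mean deviations were -0.82, -1.08, 2.05 and 0.05 in heterozygous mice and -2.24, -1.37, 1.06 and 2.34 in wildtype mice. The part of either list in the muscle forms' array difference was not tested.

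**Figure D3:**
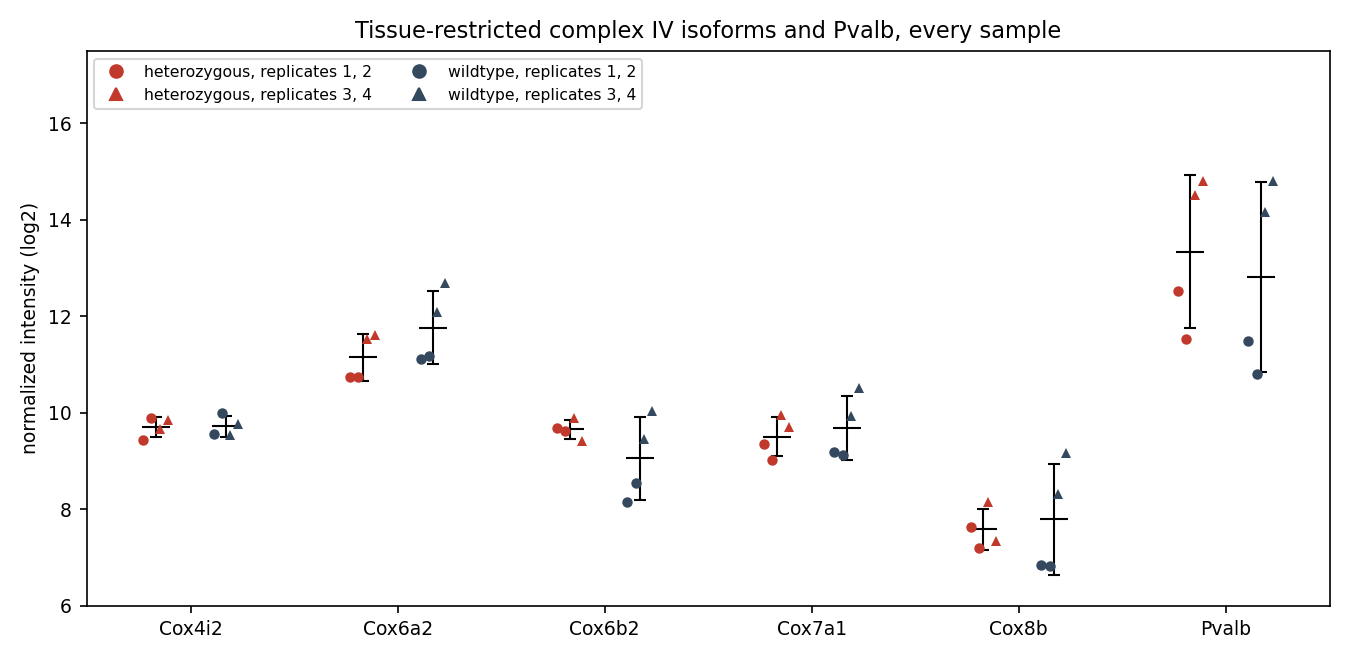
Normalized intensity (log2) of the tissue-restricted complex IV isoforms above background and of Pvalb in every sample, heterozygous (red) left of wildtype (dark blue), with bars for the mean ± SD of 4 mice. Triangles (replicates 3 and 4) stand above circles (replicates 1 and 2) in both genotypes for Cox6a2, Cox7a1 and Pvalb, and the genotypes overlap for all 6 genes.

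In complex V, the heads that make ATP are built from Atp5a1 and Atp5b, and the others form the stalks and the membrane rotor. Atp5a1, the alpha subunit, had 13.86, 13.86, 13.75 and 13.79 in heterozygous mice and 14.48, 14.24, 14.66 and 14.50 in wildtype mice. The groups did not overlap, and the difference was -0.65 (SE 0.25, unadjusted p = 0.0264, adjusted p = 0.561 in limma). Atp5b, the catalytic beta subunit, had 1 flagged heterozygous value and was chosen after its values were seen. With that value kept it had 14.46, 14.49, 15.13 and 15.21 in heterozygous mice, against 16.55, 16.42, 16.39 and 16.59 in wildtype mice. All heterozygous values were over 1 unit below the wildtype ones, and the difference was -1.66 (SE 0.30, adjusted p = 0.239 in limma). Atp5c1, the gamma subunit of the central stalk, gave -0.05 with 1 probe and, with flagged spots kept, -0.61 with another. With flagged spots kept the delta subunit Atp5d gave -0.02, and -0.42 with its flagged samples dropped.

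Atp5k, the e subunit of the membrane part, had 14.26, 14.04, 14.95 and 14.82 in heterozygous mice and 13.46, 13.39, 12.98 and 13.01 in wildtype mice with the probe at chr5:108862263-108862322 (mm9). The groups did not overlap, with a difference of 1.31 (SE 0.31, unadjusted p = 0.00204, adjusted p = 0.435 in limma). The array's annotation places the other 2 Atp5k probes on chromosome Y, not on the gene's chromosome, and with flagged spots kept they gave -0.16 (SE 0.31) and -0.35 (SE 0.30). Atp5l, the g subunit, has 6 probes. The 1 without flags, at chr9:44721424-44721483 (mm9), had 13.43, 13.32, 13.25 and 13.09 in heterozygous mice and 13.79, 13.62, 13.92 and 13.89 in wildtype mice, a difference of -0.53 (SE 0.23, unadjusted p = 0.0444, adjusted p = 0.614 in limma). With flagged spots kept the other 5 gave 1.68, 0.35, 0.06, -0.07 and -0.89, of which the first was 2.74 and the last -0.24 with flagged samples dropped. The first of these, A_55_P2024021, had 13.90, 14.03, 14.16 and 14.04 in heterozygous mice and 13.45, 13.39, 11.20 and 11.39 in wildtype mice, so that the low wildtype array of replicates 3 and 4 carried most of its difference. Without the wildtype array of replicates 1 and 2 and with flagged spots left out it reached 2.74 (SE 0.28, adjusted p = 0.0294 in limma), the 1 member called in any alternative other than the fit without the array block. That fit leaves 1 wildtype array, the low one, so its SE and p hold no difference between wildtype arrays.

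Atp5o, the stalk protein that confers oligomycin sensitivity, was chosen after its values were seen. With flagged spots kept it had 12.94, 12.76, 12.41 and 12.40 in heterozygous mice and 11.35, 11.43, 11.59 and 11.97 in wildtype mice, a difference of 1.04 (SE 0.33, adjusted p = 0.419 in limma). Atp5h, the d subunit of the peripheral stalk, had 15.79, 15.71, 15.28 and 15.05 in heterozygous mice and 15.65, 15.54, 15.85 and 15.90 in wildtype mice (-0.28, SE 0.28), with overlapping groups. Atp5s had 7.02, 6.66, 8.12 and 8.06 in heterozygous mice and 8.30, 8.08, 7.97 and 7.84 in wildtype mice (-0.58, SE 0.39), where the 2 heterozygous arrays were 1.25 apart. The remaining 5 fitted probes, of Atp5c1, Atp5f1, Atp5g2, Atp5j and Atp5j2, lay between -0.31 and 0.26, and 16 fitted with flagged spots kept, the rotor-ring genes Atp5g1, Atp5g2 and Atp5g3 among them, between -0.61 and 0.75. Differences of both signs were thus seen among the stalk and membrane genes, while both head genes were lower, each with a single probe. The Atp5b probe had a flagged value and lay among rows where all probes tended to be lower, as given below.

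How far probes of the same gene went together was set out over all 41 pairs of detected probes in 19 genes. Their differences were a median of 0.65 log2 units apart, and 21 of 41 pairs had opposite signs. The 14 pairs that shared a run of 20 or more bases were a median of 1.09 apart, with 8 of 14 of opposite sign, and the 27 other pairs a median of 0.56 apart, with 13 of opposite sign. Among the 14, the Atp5l pair printed above was the widest, 2.56 apart, followed by the printed Uqcr10 pair, 2.19 apart. With flagged samples dropped, 6 of 11 pairs that share bases and 9 of 24 others had opposite signs, at medians of 0.74 and 0.49 apart. The pairs that share bases were thus no closer than the others. They are not all alike. The Atp5l pairs share runs of only 20 to 32 of 60 bases. The Cox5b pair and an Atp5k pair each include a probe that the array's annotation places away from the gene. Pairs of a gene share probes, so they are not independent, and no test was made.

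**Figure D4:**
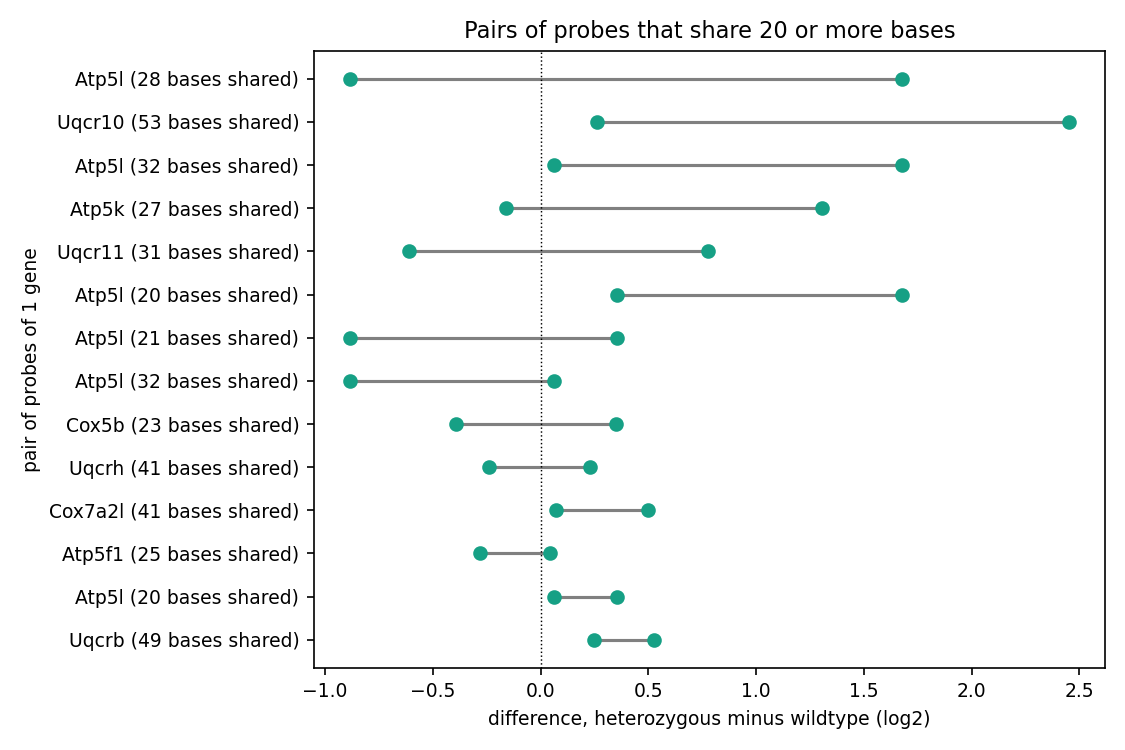
Difference, heterozygous minus wildtype (log2), of the 14 pairs of member probes that share a run of 20 or more bases, flagged spots kept. Each line joins the 2 probes of a pair, and 8 of the 14 lines cross 0.

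The members' differences went with the position of their spots. For 73 single-spot members, the difference was set beside the median difference of the other probes within 15 rows and 10 columns of the array, 155 to 368 probes each. Pearson's r was 0.83 and Spearman's rho 0.79, given as a description, since members of 1 region share neighbours and all share the 4 arrays. The signs were the same for 56 of 73 members, and for 15 of the 15 with an unadjusted p under 0.05 with flagged spots kept. In rows 481 to 532 the median of all 1942 probes was 0.33 and 19.7% were higher at an unadjusted p under 0.05. Of the 8 members there, 7 were higher, Uqcr10, Uqcrb, Atp5l, Atp5o and Sdha at an unadjusted p under 0.05. In rows 241 to 300 and 301 to 360 the medians of all probes were -0.25 and -0.21, and 10.1% and 9.99% of them were lower at that threshold. Of the members there, 6 of 7 and 9 of 12 were lower. These included Atp5b, both Sdhc probes, and the Sdhb, Uqcr11 and Atp5l probes that were lower.

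**Figure D5:**
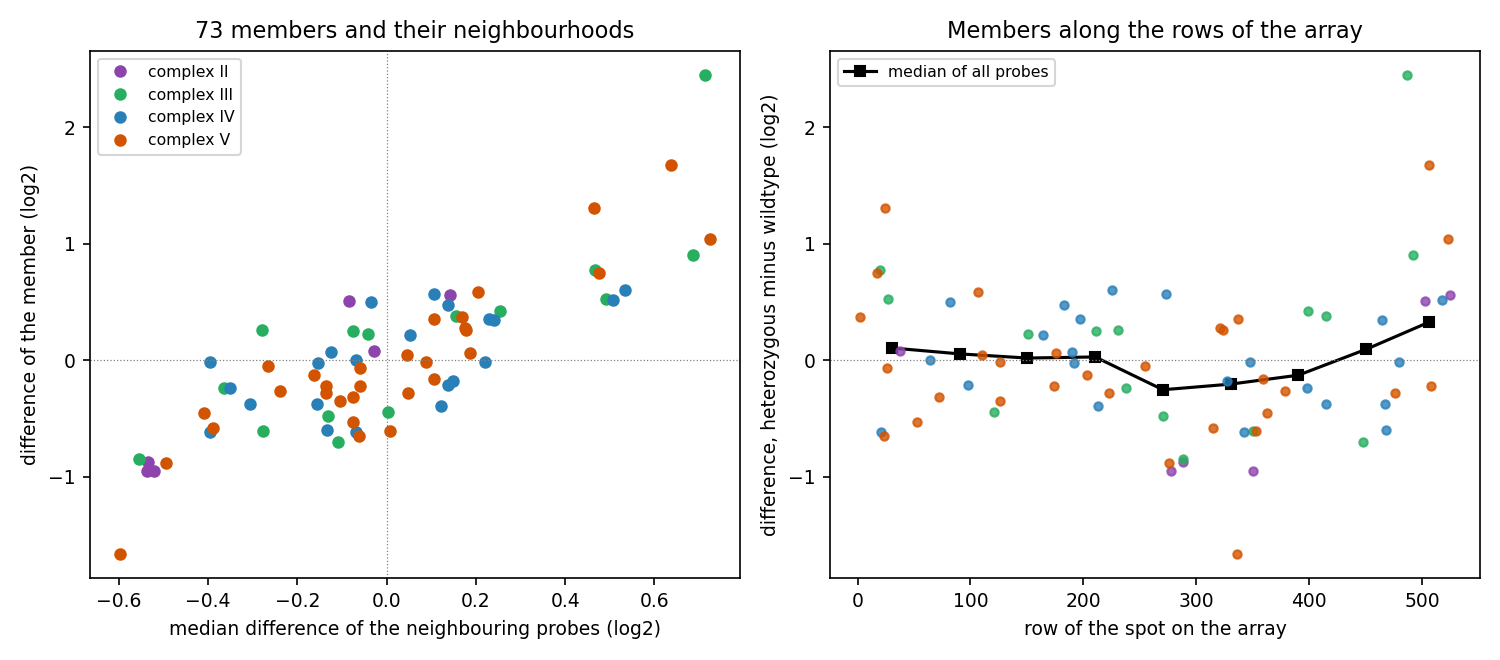
Left, the difference of each of 73 members (log2, flagged spots kept) against the median difference of its neighbouring probes, coloured by complex. Right, the same differences along the rows of the array, with the median of all probes per band of rows as a black line. Members rise with their neighbourhood (r 0.83), and those of rows 481 to 532 lie mostly above 0.

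With a smooth trend over rows and columns removed from each channel, no member passed the adjusted threshold, and 3 were higher and 3 lower at an unadjusted p under 0.05 (7.89% each, against 2.12% and 2.61% of all probes in that fit). Uqcr10 kept a difference of 2.10, and 2.02 with a finer trend removed. Atp5k kept 1.02 and 0.99, Uqcrb 0.55 and 0.49, and Sdhb -0.66 and -0.52. Cox4i1 kept -0.60 and -0.46 and Atp5a1 -0.62 and -0.48, and their neighbours had a median of -0.07 and -0.06 before the removal. Relative to their size, Uqcrb and Sdhb thus moved most of these 6, and Cox4i1 and Atp5a1 least, under the first trend.

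Differences between arrays of 1 genotype are given beside those between genotypes. Over the 38 members fitted, the median size of the difference between 2 mice of 1 array was 0.15, between the 2 heterozygous arrays 0.30, between the 2 wildtype arrays 0.28, and between the genotypes 0.39. A genotype difference is between means of 2 arrays each, so sampling alone spreads it less than a difference between single arrays. These sizes are therefore not on equal terms. The genotype difference was larger than that between arrays in both genotypes for 14 of 38. The share of all probes for which this holds was not computed, so the 14 cannot be set against it. The exact two-sided permutation test over the 8 mice gave 0.0286 for each probe without overlap, the smallest p that 4 mice against 4 allow, and over arrays the smallest possible is 0.333.

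Other genes of oxidative phosphorylation were taken from lists of assembly factors, carriers, regulators and mitochondrially encoded subunits. Of 74 listed genes, 62 were on the array, and 55 probes were fitted: 0 passed the adjusted threshold, 5 were higher and 5 lower at an unadjusted p under 0.05 (9.09% each, against 3.89% and 4.09% of all probes), and the median difference was -0.01. The complex II assembly factors split, Sdhaf2 at 0.97 (SE 0.23) and Acn9, now Sdhaf3, at -0.98 (SE 0.30). For complex IV, Cox15, which makes heme a, gave -0.90 (SE 0.23) with 1 of 2 probes and -0.32 with the other, Lrpprc, which stabilises mitochondrial transcripts, -1.17 (SE 0.31), and the insertase Cox18 1.07 (SE 0.34). Of the mitochondrial transcription factors, Tfb1m gave 0.73, Tfb2m -1.06, and Tfam 0.65, -0.06 and -0.13 with its 3 probes. Among mitochondrially encoded subunits, COX1 gave 0.37 (SE 0.51), ATP6 -0.09 and ATP8 0.10, and with flagged spots kept COX2 gave -0.999 and COX3 0.71. COX1, COX2 and COX3 form the catalytic core of complex IV and arise from 1 polycistronic strand, and their differences did not share a sign.

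The promoters of these genes are known for sites of NRF-1, of GABP (also called NRF-2) and of YY1. In RefSeq windows from 250 bases before to 50 after the gene start (GRCm38.p6), 37 of the 49 genes matched, in 41 windows. A form of the NRF-1 site, GCGC followed by any base and TGCGC, was found on either strand in 24.4% of these windows, against 4.60% of all 32851. CCGGAAG, the core bound by GABP and other ETS factors, was in 29.3% against 8.86%, and AANATGGCG, a form of the YY1 site, in 12.2% against 2.38%. That 12.2% is 5 windows, all under complex V, and includes overlapping windows of Atp5sl, which encodes no core subunit. The windows of the members had a median GC content of 56.3%, against 52.7% of all windows. A match is a description of letters, not of binding. The 3 stretches below are examples chosen among windows that hold a motif, from members with differences at an unadjusted p under 0.05. For Atp5b that p was reached with its flagged value kept or dropped, as it was not in the main fit. The motif or its reverse complement is in capitals, at chr4:140961266-140961295, chr5:108434430-108434459 and chr10:128083313-128083342.
Sdhb, ETS letters: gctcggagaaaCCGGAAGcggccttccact
Atp5k, NRF-1 letters: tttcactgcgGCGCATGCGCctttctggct
Atp5b, YY1 letters: acccggattcCGCCATGTTgagtcttgtgg
The Atp5k window also holds the ETS letters. That of Uqcr10, the member with the largest difference, holds none of the motifs. Sdhb and Atp5b were lower and Atp5k higher in heterozygous mice.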

How the data were processed

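Per the file headers, Agilent Feature Extraction 11.0.1.1 gave every spot an intensity and a local background in both channels, a processed intensity, and other columns of outlier and background flags, with probe coordinates on mm9. The deposited value table is a linear ratio: median spot signal minus local background, divided by the column median. This was found by setting it against the scanner values (100% equal), as the sources used here do not state its scale, and each column's median is 1.

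The files of the 2 mice on an array hold the same scan, and each sample's own channel was background-corrected with normexp (offset 50), normalized with loess within and Aquantile between arrays, and set to log2 from the deposited intensities. Outlier-flagged spots were left out, spots of 1 probe averaged, and probes kept where at least 4 of 8 samples were well above background and all 8 had a value. limma 3.58.1 in R 4.3.3 was fitted on all 18399 probes with the dye as a covariate and a random block for arrays (correlation 0.81), with Benjamini-Hochberg adjustment over all of them, and was tested on simulated data. RefSeq names were matched by accession for 72 probes and by symbol for 6. The number of arrays, 2 per genotype, limits the precision. Members and lists were chosen with earlier results of these data known. Values in every sample are given for, in each complex, up to 4 probes with the lowest unadjusted p and the one with the highest mean, for genes whose probes differ by over 0.5, and for tissue-restricted isoforms with their partners; the others are given by range. Alternatives covered the signal, normalization, filters, flags, spatial trend, array, dye and left-out samples.

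Same-numbered mice were not treated as pairs. The correlation of their deviations from the genotype mean over all probes was 0.04 to 0.26, against -0.23 to 0.22 for other numbers. Same-numbered mice also share a dye, so these values cannot decide whether they belong together.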

Additional observations from a re-analysis of the deposited data

How the results depend on the processing

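The 2 arrays per genotype, the outlier flags and the position of the spots limit these results, and the 4 dim probes give no difference. No member passed the adjusted threshold in any of the alternatives except 2. Without the array block 5 of 38 members passed, Uqcr10, Sdhb, Atp5k, Uqcrb and Cox4i1, among 529 of 18399 probes. Without wildtype replicates 1 and 2, which leaves 1 wildtype array, 1 of 48 members passed, Atp5l, among 19 of 18186 probes. Uqcr10 and Atp5k kept an unadjusted p under 0.05 in all alternatives that gave them a value (26 and 27), Sdhb in 26 of 27, Uqcrb in 25 of 26, Cox4i1 in 21, Atp5a1 in 20 and Atp5l in 7 of 27.

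Members higher at an unadjusted p under 0.05 numbered 7 of 74 with outlier spots kept and 5 of 71 with outlier spots dropped per probe. They numbered 1 of 31 with the brightest probe of each gene, 6 of 48 without wildtype replicates 1 and 2 and 5 of 42 without wildtype replicates 3 and 4. Of all probes, 7.98% were at that threshold in either direction in the main fit. In these fits, in the order given, that share was 8.80%, 8.87%, 7.88%, 15.6% and 8.30%. Members lower numbered 2 of 38 with the scanner's processed signals and with the value table, 8 of 74 with outlier spots kept and 7 of 38 without the array block. They numbered 1 of 38 with array means, 1 of 41 with Cy5 samples and 1 of 42 without wildtype replicates 3 and 4. Of all probes, 3.22% and 6.59% were at that threshold in either direction with the processed signals and the value table. That share was 21.0% without the array block, 6.00% with array means and 5.76% with Cy5 samples. Leaving out 1 mouse at a time gave 0 called, 3 higher and 2 to 4 lower of 38 to 40 members, 2 without heterozygous replicate 1 and without wildtype replicate 3. In these fits 5.79% to 7.23% of all probes were at that threshold in either direction. The medians were -0.99 to -0.46 for complex II, 0.28 to 0.33 for III, -0.09 to 0.03 for IV and -0.27 to -0.091 for V. The complex II median was -0.53 with processed signals, -0.40 with outlier spots kept, -0.41 with them dropped per probe, -0.66 and -0.52 with the spatial trend and the finer trend removed, -0.46 with Cy3 samples, -0.73 without heterozygous replicates 1 and 2 and -0.41 without 3 and 4. That of complex III was 0.18 with the finer trend removed and 0.21 without heterozygous replicates 3 and 4. That of complex IV was 0.085 with Cy3 samples and -0.10 with the brightest probes. That of complex V was -0.10 with the finer trend removed, -0.094 with Cy3 samples and -0.091 without wildtype replicates 1 and 2. The finer trend and the values dropped per probe were added after seeing the data. The cause of these changes was not tested.

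With the replicate number as a block in place of the dye, 0 of 38 members passed the adjusted threshold, so no call changed. At an unadjusted p under 0.05, 3 were higher and 4 lower, with 11.3% of all probes at that threshold in either direction. Of 4 heterozygous mice, 2 correlated best with the wildtype mouse of their own number.

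Among the 26 probes with values in every sample chosen by rule, the differences that reversed sign all had an unadjusted p over 0.05 as reported. Cox6a1 was 0.23 with processed signals, 0.21 and 0.15 with the trend and finer trend removed, 0.00079 with Cy5 samples, 0.0041, 0.046 and 0.033 without heterozygous replicate 1, wildtype replicate 1 and wildtype replicate 4 (leaving out 1 mouse at a time, -0.087 to 0.046), and 0.15 without heterozygous replicates 1 and 2. Cox4i2 was -0.064 to 0.028 with 1 mouse left out, above 0 without heterozygous replicate 1 or 4 and wildtype replicate 2 or 3, 0.032 without heterozygous replicates 1 and 2 and 0.049 without wildtype replicates 1 and 2. Cox7a1 was 0.092 with Cy3 samples, -0.34 to 0.040 with 1 mouse left out, above 0 without wildtype replicate 4, 0.14 without heterozygous replicates 1 and 2 and 0.35 without wildtype replicates 3 and 4. Cox8b was 0.31 with Cy3 samples, -0.46 to 0.14 with 1 mouse left out, above 0 without heterozygous or wildtype replicate 4, and 0.74 without wildtype replicates 3 and 4. Cox8a was -0.15 with processed signals. Without heterozygous replicates 1 and 2 Atp5s was 0.043, and without 3 and 4 Cox5b was 0.17 and Atp5h 0.013. Without wildtype replicates 1 and 2 Cox6b2 was -0.098 and Uqcrb -0.0070, and without 3 and 4 Cox6a2 was 0.0079 and Cox7c -0.13. Of the 48 other members with a difference, 13 turned in at least 1 alternative, of Atp5c1, Atp5f1, Atp5g2, Atp5j2, Cox4nb, Cox6c, Cox7a2l, Cox7c, Uqcr10, Uqcrh and Uqcrq. Among them Uqcr10 A_55_P2166414 was -0.41 without wildtype replicates 3 and 4 and Uqcrq A_55_P1965378 0.22 without heterozygous replicates 3 and 4, and with flagged samples dropped Uqcrh A_55_P2052470 was 0.44 and Cox6c 0.13.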
